A study of Mus musculus with 617 samples.

Results

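Dazl, Ddx4, Mael, Sycp3, Stk31, Asz1, Tex19.1, Mov10l1 and Hormad1 are 9 mouse genes of germ cells and early gametogenesis, taken by their symbols and found as 9 of the 43628 Ensembl gene rows in each of 4 deposited tables. The tables hold FPKM (fragments scaled by transcript length and by the mapped fragments of each library) for 617 single cells, each prepared as its own SMART-seq2 library. Embryonic stem (ES) cells of a female line (60 cells) and a male line (51 cells) were kept in 2i and LIF, a medium with inhibitors of 2 kinases and leukaemia inhibitory factor, and cells of the same lines (68 female, 52 male) were kept in serum and LIF. Epi cells (79 female, 63 male) were derived from both lines with Activin A and FGF2, and motor neuron cultures (39 female, 35 male) by embryoid body formation with retinoic acid and the smoothened agonist SAG, a route that per the labels also yields several kinds of interneuron. A further female Epi culture was kept for 7 passages (41 cells), and embryos gave inner cell mass cells at embryonic day 3.5 (23 cells), epiblast cells at day 4.5 (23 cells) and epiblast cells at day 5.5 (20 female, 63 male).

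The cultured cells and the day 3.5 and 4.5 embryos had a C57BL/6J mother and a CAST/EiJ father, and the day 5.5 embryos had C57BL/6J parents on both sides. No group received a further treatment. Each culture is 1 sample here, whatever its number of cells. Line and sex are the same factor, since there was 1 female and 1 male line, and the 2 lines serve as the replicates of each culture condition.

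In the mouse, promoters of many germline genes are rich in CpG and are methylated by the de novo methyltransferases as the epiblast forms around implantation, which keeps the genes silent in somatic tissue. Primordial germ cells later erase this methylation and switch the genes on. Before and alongside methylation, a variant Polycomb complex (PRC1.6) reaches such promoters through E-box and E2F-type sequences bound by its subunits Mga, Max and E2f6. DNA methylation was not measured in these libraries, so the values below are RNA levels only.

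The 9 genes lie on 8 chromosomes of the mm10 build (GRCm38, GENCODE vM21) and are all protein coding. Dazl is at chr17:50279395-50293636, Ddx4 at chr13:112598333-112652475, Mael at chr1:166201201-166238747 and Asz1 at chr6:18050964-18109061, all 4 on the minus strand. Sycp3 is at chr10:88459569-88473236, Stk31 at chr6:49395604-49469501, Tex19.1 at chr11:121146143-121148319, Mov10l1 at chr15:88982909-89055152 and Hormad1 at chr3:95559677-95587671, all 5 on the plus strand. Of the 9, only Sycp3 shares exonic bases with another annotated gene, Chpt1 on the opposite strand.

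The sequences just before the transcript starts were compared because they hold the CpG sites and the letters through which PRC1.6 is known to reach such promoters. All 9 matched the RefSeq promoter table (GRCm38.p6), and the 250 bases before the first listed start of each were searched on both strands for the E-box CACGTG and for the E2F-type motif GCGGGA, whose reverse complement is TCCCGC. The E-box was present before 6 of 9 members, against 6.02% of all 32851 windows of the table and 9.76% of the 11003 windows with at least 12 CpG sites, the lowest number in a member. Sycp3 and Hormad1 each held 2 E-boxes. The E2F-type motif was present before 5 of 9 members, against 16.9% of all windows and 39.7% of those CpG-rich windows. Both motifs stood before Ddx4, Mael, Sycp3 and Hormad1, so 4 of 9 members, against 1.45% and 3.83% of windows. Neither stood before Dazl or Asz1. Of 28 other listed germline genes with a window, 35.7% held an E-box, 28.6% the E2F-type motif and 3.57% both. The members had 12 to 31 CpG sites per window, with a median of 19 against 6 over all windows. A match describes the letters only and is no measured binding site.

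The windows of 5 members are shown, 5′ to 3′ on the gene's own strand and ending at the base before the first start that RefSeq lists, because they hold the range from no motif to 3 motifs. For Dazl, Mael and Sycp3 that start lies inside the GENCODE bounds given above, so their windows run into the gene by those bounds. Capitals mark the E-box or the E2F-type motif. Dazl (chr17:50293621-50293870, minus strand) has neither, Tex19.1 (chr11:121145893-121146142, plus strand) has the E2F-type motif alone, Mael (chr1:166238745-166238994, minus strand) has 1 of each, and Sycp3 (chr10:88459337-88459586, plus strand) and Hormad1 (chr3:95559427-95559676, plus strand) have 2 E-boxes and 1 E2F-type motif.
Dazl: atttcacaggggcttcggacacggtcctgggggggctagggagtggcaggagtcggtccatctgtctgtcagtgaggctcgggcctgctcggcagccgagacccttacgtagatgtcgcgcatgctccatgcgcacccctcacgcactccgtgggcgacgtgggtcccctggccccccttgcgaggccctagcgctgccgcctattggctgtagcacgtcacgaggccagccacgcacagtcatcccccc
Tex19.1: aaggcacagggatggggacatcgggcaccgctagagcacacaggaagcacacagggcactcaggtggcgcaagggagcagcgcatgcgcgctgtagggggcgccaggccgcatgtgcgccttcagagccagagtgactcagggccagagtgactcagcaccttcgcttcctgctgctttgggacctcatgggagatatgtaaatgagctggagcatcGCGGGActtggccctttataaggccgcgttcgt
Mael: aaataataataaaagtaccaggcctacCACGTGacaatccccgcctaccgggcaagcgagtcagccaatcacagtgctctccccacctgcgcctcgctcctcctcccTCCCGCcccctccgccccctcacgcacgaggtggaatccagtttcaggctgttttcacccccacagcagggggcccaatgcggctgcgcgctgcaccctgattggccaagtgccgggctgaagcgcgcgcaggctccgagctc
Sycp3: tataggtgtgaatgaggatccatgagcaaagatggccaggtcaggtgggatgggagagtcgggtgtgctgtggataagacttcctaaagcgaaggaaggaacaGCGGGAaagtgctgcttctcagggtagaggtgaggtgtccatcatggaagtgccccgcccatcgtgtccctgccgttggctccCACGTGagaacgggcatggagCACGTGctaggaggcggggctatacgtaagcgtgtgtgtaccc
Hormad1: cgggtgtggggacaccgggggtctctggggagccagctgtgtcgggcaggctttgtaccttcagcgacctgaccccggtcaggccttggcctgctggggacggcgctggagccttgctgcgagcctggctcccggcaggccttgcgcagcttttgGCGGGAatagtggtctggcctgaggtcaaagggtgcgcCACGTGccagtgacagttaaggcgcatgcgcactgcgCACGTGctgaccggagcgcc

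**Figure D1:**
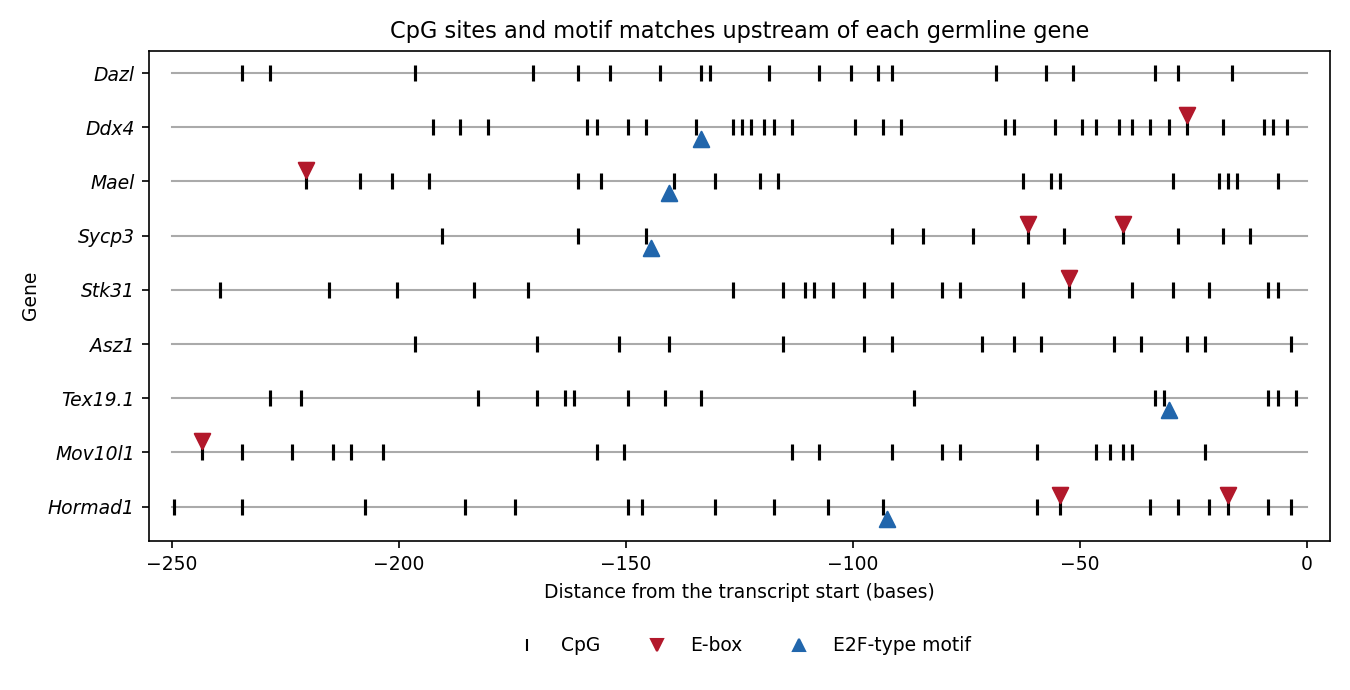
CpG sites (black ticks), E-boxes (red triangles) and E2F-type motifs (blue triangles) in the 250 bases before the transcript start of each of the 9 germline genes, by distance from the start in bases. Sycp3 and Hormad1 carry 2 E-boxes each, and the Dazl and Asz1 windows carry neither motif.

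The median cell had 8122 genes at 1 FPKM or more at day 3.5 and 10839.5 in the day 5.5 female group, the extremes of the 13 groups, and read depth per cell cannot be had from FPKM. Labels were checked against markers in each group. The female Epi culture goes against its label: 78 of its 79 cells had the naive marker Zfp42 at 1 FPKM or more, against 0 of 63 in the male Epi culture and 3 of 41 in the 7-passage culture. Its summed mean of 3 primed markers (Otx2, T, Fgf5) was 47.1 FPKM, against 471 and 339 FPKM. It is therefore called the library labelled female Epi. Tests of the members that rest on it are also given without it or with the 7-passage culture in its place. For the other gene lists such tests are not given. In the female motor neuron culture all 4 of 4 pluripotency markers averaged at least 1 FPKM (summed mean 66.2 FPKM, 0 to 664 FPKM per cell), against 1 of 4 in the male one (5.77 FPKM, 0 to 46.7 FPKM per cell). All 4 trophectoderm markers averaged at least 1 FPKM in each embryo group (summed means 56.2 to 259.3 FPKM), and in the 7-passage Epi culture 2 of 4 did, with a summed mean of 660 FPKM. In the female and male motor neuron cultures 1 of 4 did (208.8 and 212.1 FPKM). In male Epi cells 2 of 4 did (124.5 FPKM). The library labelled female Epi had 2 of 4 (18.4 FPKM) and the ES cultures 1 to 3 of 4 (5.17 to 38.6 FPKM). All 3 endoderm markers (Sox17, Gata4, Gata6) averaged at least 1 FPKM in the female and male motor neuron cultures (summed means 142.4 and 417.8 FPKM), the male Epi culture (92.6 FPKM) and the 7-passage culture (57.8 FPKM), against 0 or 1 of 3 in the ES cultures (at most 6.53 FPKM). All 3 also did at days 3.5 and 4.5 (summed means 44.7 and 56.7 FPKM, the latter 0 to 373.6 FPKM per cell). At day 5.5, 2 of 3 did (44.8 FPKM in female and 15.1 FPKM in male cells). In the motor neuron cultures against serum, 3 of 3 endoderm markers and 4 of 4 neuron markers were called higher by limma (median log2 differences 5.48 and 4.97). Of all genes, 30.1% were called higher there, and the median log2 difference was 0.71. The part of these differences in the values below was not tested, beyond the fits without a culture that are given.

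In cultured cells the mean number of members expressed per cell was highest in serum and lowest in the 2 Epi cultures that carried primed markers, while single members had their highest share of cells in different cultures. A cell was counted as expressing a gene at 1 FPKM or more. The mean number of members expressed per cell was 4.43 ± 1.03 (SD, n = 60 cells) in female and 4.71 ± 1.30 (n = 51) in male 2i cells, and 5.59 ± 1.57 (n = 68) in female and 5.69 ± 1.502 (n = 52) in male serum cells. In the library labelled female Epi it was 4.86 ± 1.80 (n = 79), in male Epi cells 0.254 ± 0.439 (n = 63), and in 7-passage Epi cells 0.122 ± 0.331 (n = 41). No member was expressed in 47 of 63 male Epi cells and in 36 of 41 cells of the 7-passage culture, and no cell of either expressed more than 1. In embryo cells the mean was 3.87 ± 1.46 (n = 23) at day 3.5, 4.74 ± 1.45 (n = 23) at day 4.5, and 4.35 ± 1.42 (n = 20) in female and 3.71 ± 1.34 (n = 63) in male cells at day 5.5.

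**Figure D2:**
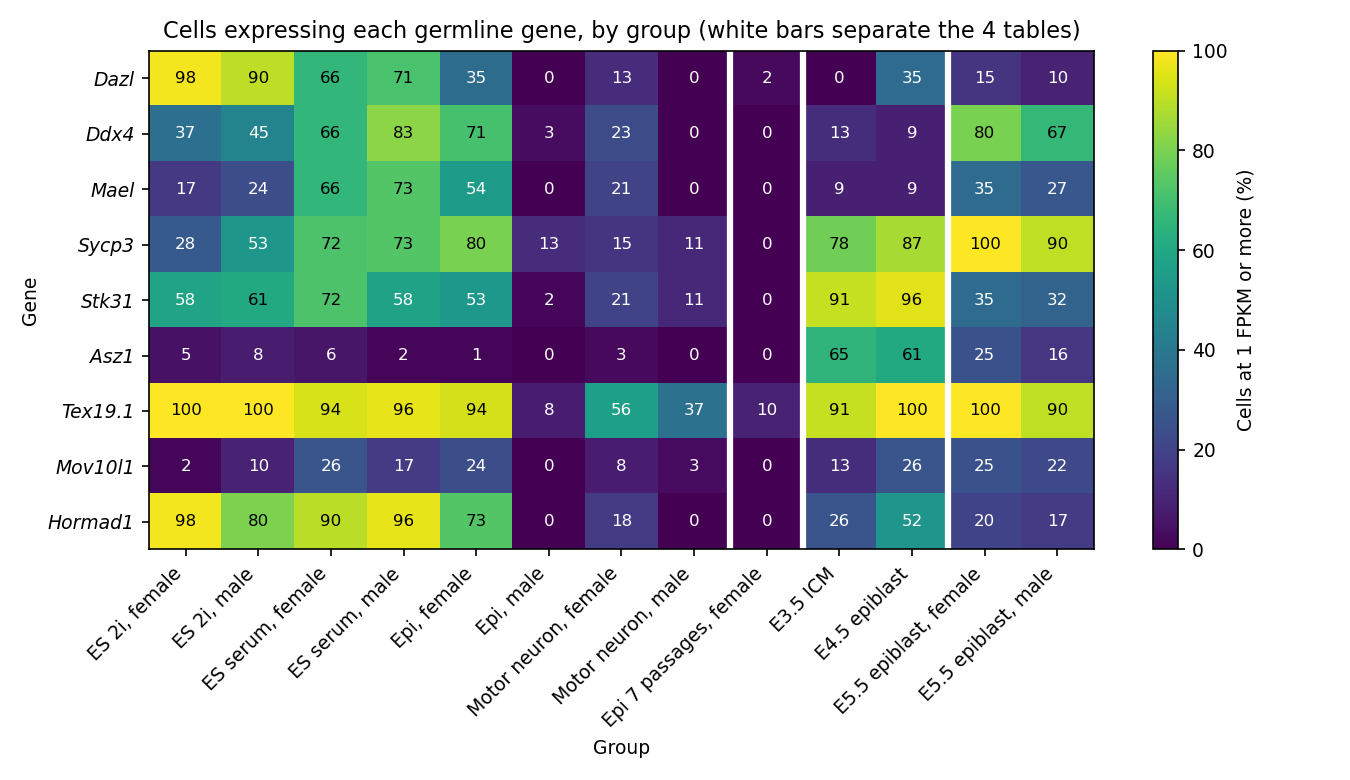
Share of cells (%) with at least 1 FPKM of each germline gene (rows) in each of the 13 groups (columns), with white bars between the 4 separately normalized tables. Male Epi and 7-passage Epi cells stay at or below 12.7% for all 9 genes, and Asz1 passes 50% only in the day 3.5 and 4.5 embryo cells.

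**Figure D3:**
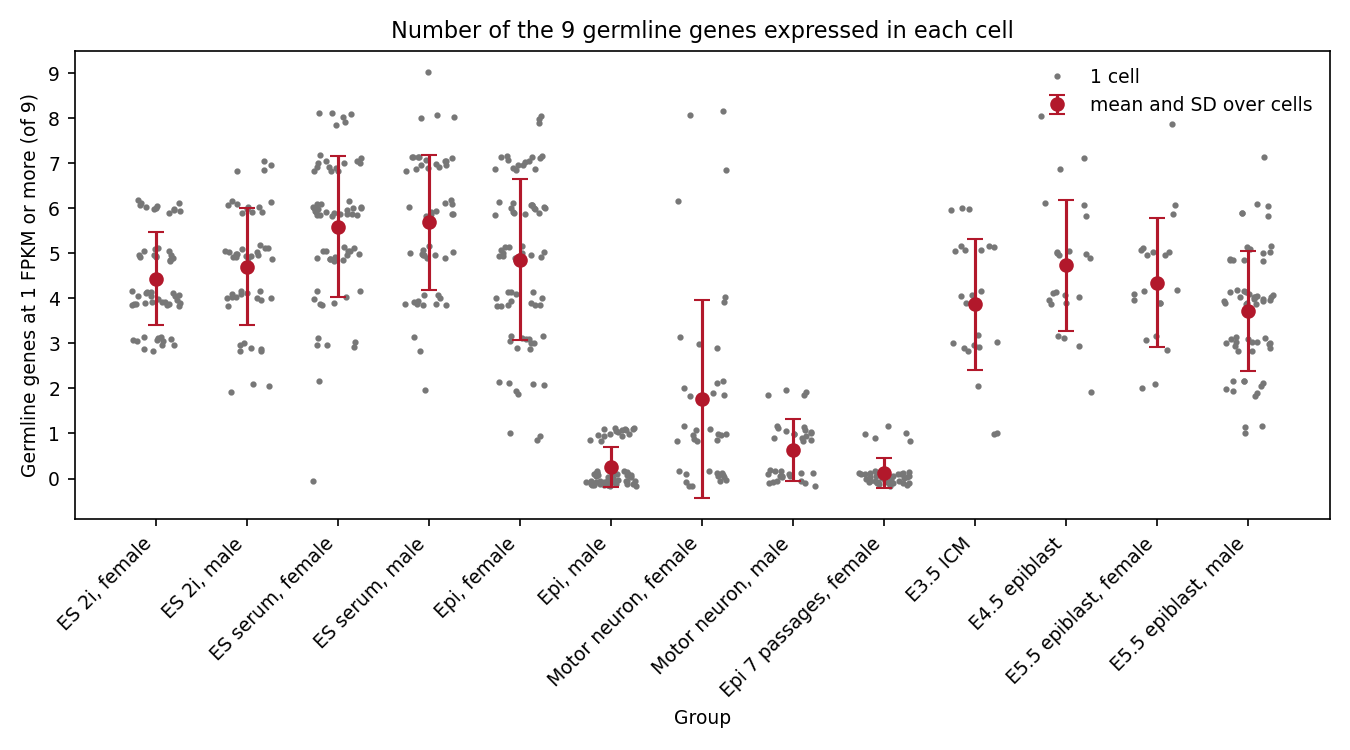
Number of the 9 germline genes at 1 FPKM or more in each cell (grey points, spread sideways and slightly up and down so that they can be seen), with the mean and SD over cells in red, for the 13 groups. No male Epi or 7-passage Epi cell has more than 1, while single cells of the female motor neuron culture reach 8.

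Dazl encodes an RNA-binding protein that licenses germ cells and controls translation of germ cell messages. Mean Dazl was 8.67 and 12.6 FPKM in female and male 2i cells, 11.9 and 11.3 FPKM in serum cells, 1.84 FPKM in the library labelled female Epi and 1.41 FPKM in female motor neurons. It was listed at 0 in every one of the 63 male Epi cells, which allows a share of expressing cells of up to 4.76% if 3 cells are taken as the limit of a count of 0 (the upper 95% Clopper-Pearson bound is 5.69%), and in every one of the 35 male motor neuron cells, which allows up to 8.57%. The 2i and serum cultures overlapped, and each of the other cultures lay below all 4 of them. Dazl and Tex19.1 were the members seen in fewer cells in serum than in 2i in both lines. Dazl was expressed in 98.3% of female 2i cells (59 of 60; 95% Clopper-Pearson interval 91.1 to 99.96%) and 90.2% of male ones (78.6 to 96.7%), against 66.2% (53.7 to 77.2%) and 71.2% (56.9 to 82.9%) in serum. The highest single values were 238.1 FPKM in 2i and 153.8 FPKM in serum, both in male cells.

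Ddx4 encodes the germ cell RNA helicase also called mouse vasa homologue. Its mean was 1.42 and 2.27 FPKM in female and male 2i cells, 5.63 and 8.00 FPKM in serum cells and 6.45 FPKM in the library labelled female Epi. In male Epi cells it was 0.0639 FPKM, in female motor neurons 4.41 FPKM, and it was listed at 0 in all male motor neuron cells and all 7-passage Epi cells. Serum lay above 2i in both lines, and the library labelled female Epi lay between the 2 serum cultures.

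A pair of members acts on the meiotic chromosome axis. Sycp3, a structural protein of the synaptonemal complex, averaged 1.69 and 4.45 FPKM in female and male 2i cells, 17.3 and 18.4 FPKM in serum cells, and 18.5 FPKM in the library labelled female Epi. It averaged 0.913 FPKM in male Epi cells, 0.0524 FPKM in the 7-passage culture, and 2.75 and 3.56 FPKM in female and male motor neurons. The male motor neuron mean came from few cells: 4 of 35 expressed Sycp3, and 1 of them reached 117.6 FPKM. The libraries do not mark strand, so reads in the bases shared with Chpt1 cannot be told apart. Chpt1 ran from 2.33 FPKM in female serum cells to 7.56 FPKM in female motor neurons, and its part in the Sycp3 values was not tested.

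Hormad1, which marks unsynapsed axes, averaged 19.5 and 7.97 FPKM in female and male 2i cells and 64.7 and 46.03 FPKM in serum cells. It averaged 25.99 FPKM in the library labelled female Epi, 0.00629 FPKM in male Epi cells and 14.3 FPKM in female motor neurons, and it was listed at 0 in all male motor neuron and 7-passage Epi cells. Beside Tex19.1 it was the only member with a higher mean in the female culture under each of the 4 conditions. That holds with the library labelled female Epi as the female Epi culture, and not with the 7-passage culture. In serum Hormad1 was expressed in 89.7% of female and 96.2% of male cells.

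The next members belong to the machinery that makes or uses piRNAs, small RNAs that silence transposons, or are linked to it. Mael, a nuage protein, averaged 0.721 and 1.20 FPKM in female and male 2i cells and 15.0 and 14.5 FPKM in serum cells. It averaged 10.54 FPKM in the library labelled female Epi, 0.00238 FPKM in male Epi cells and 3.37 FPKM in female motor neurons, and was listed at 0 in male motor neurons and the 7-passage culture. Of the 8 members tested below, Mael had the largest estimated difference between serum and 2i. Its share of expressing cells was 16.7% and 23.5% in 2i and 66.2% and 73.1% in serum.

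Mov10l1, the helicase that feeds precursors into piRNA processing, was detected in few cells even where its mean was highest. It averaged 0.0920 and 0.539 FPKM in female and male 2i cells, 3.46 and 4.75 FPKM in serum cells, 1.73 FPKM in the library labelled female Epi and 0.00739 FPKM in male Epi cells. In female and male motor neurons it averaged 3.40 and 0.276 FPKM. Only 9 of 52 male serum cells expressed it, with a mean of 27.4 FPKM over those 9, and only 3 of 39 female motor neuron cells, with a mean of 44.2 FPKM over those 3. A mean over cells does not tell fewer expressing cells from less RNA per cell, which is why shares are given beside it.

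Stk31, a Tudor domain protein of germ cells, averaged 3.46 and 3.83 FPKM in female and male 2i cells, 8.53 and 4.25 FPKM in serum cells, 2.83 FPKM in the library labelled female Epi, 0.0594 FPKM in male Epi cells, and 4.94 and 2.76 FPKM in female and male motor neurons. Of the 8 members tested below, it was the one whose motor neuron and serum means overlapped. In the motor neuron cultures these means came from 8 of 39 and 4 of 35 cells.

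Asz1, a mitochondrial and nuage protein of the piRNA pathway, was nearly absent from culture. Its mean was at most 1.28 FPKM in the 8 cultures, in male 2i cells, where 4 of 51 cells expressed it and 1 cell reached 49.3 FPKM. It did not pass the filter for testing, a mean of at least 1 FPKM over the cultures, so the other 8 members are the ones tested. Its levels in the embryo are given below.

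Tex19.1, which restrains retrotransposons in germ cells and placenta, was the most abundant member in every culture but the male Epi one. It averaged 93.4 and 83.8 FPKM in female and male 2i cells, 139.9 and 124.9 FPKM in serum cells, 86.8 FPKM in the library labelled female Epi, 0.733 FPKM in male Epi cells, 0.659 FPKM in the 7-passage culture, and 54.3 and 13.9 FPKM in female and male motor neurons. In male Epi cells Sycp3 was slightly higher than Tex19.1. All 60 female and all 51 male 2i cells expressed Tex19.1, and 13 of 35 male motor neuron cells did. Tex19.2, a close copy whose reads could be shared with Tex19.1 in counting, averaged 0.279 FPKM in male Epi cells and 6.25 FPKM in female serum cells, so Tex19.1 values carry that uncertainty.

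**Figure D4:**
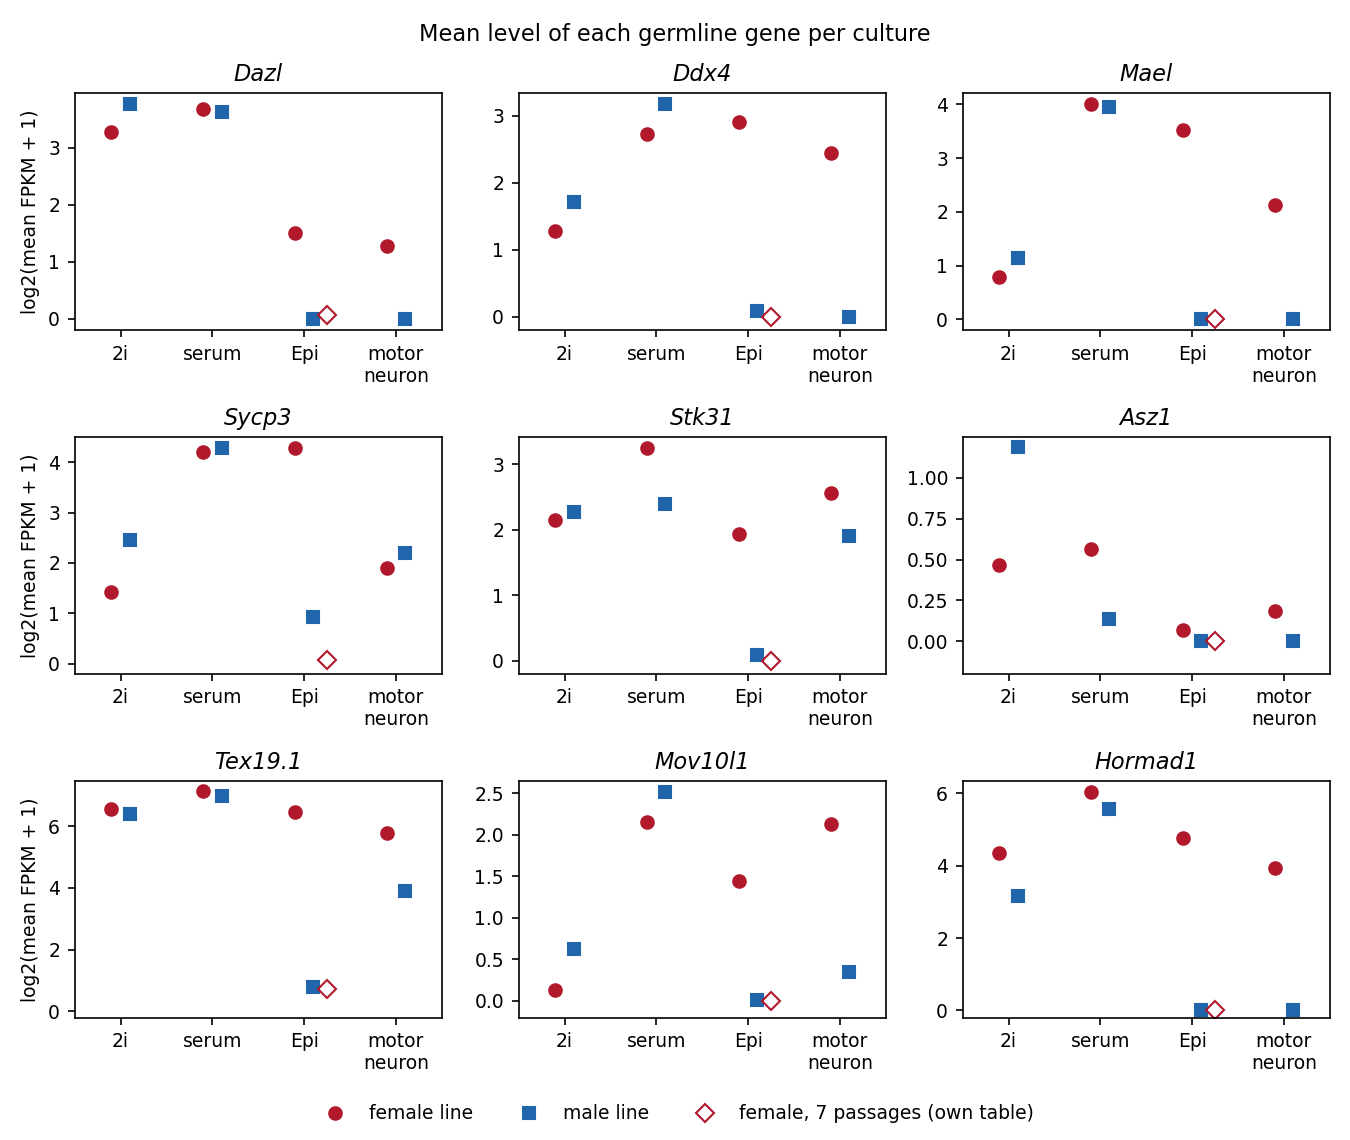
Mean level of each germline gene, as log2(mean FPKM + 1), in the female (red circles) and male (blue squares) culture of each condition and in the 7-passage female Epi culture (open diamonds, from a separately normalized table), with 1 point per culture and no error bar. In 8 of the 9 panels the male Epi square lies below both serum points by more than 2 units, and Asz1 is the exception.

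Differences between conditions were tested with limma on log2(mean FPKM + 1) of the 8 cultures over 15504 genes, with Benjamini-Hochberg adjustment. To be called, a gene had to differ by at least 1 on the log2 scale with an adjusted p below 0.05. Fold changes on this scale understate the change of low genes. With 2 cultures per condition and 4 residual degrees of freedom, calls were few outside the motor neuron comparison.

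Serum cells had higher means than 2i cells for 7 of 8 members in both lines without overlap (all but Dazl), where 27.1% of the 15504 genes had serum above 2i in this way and 26.2% had it below. The median log2 difference of the 8 members was 1.71, against 0.00 over all genes. The largest were Mael at 3.02 (SE 1.18, limma adjusted p = 0.460), Sycp3 at 2.30 (SE 1.01, adjusted p = 0.536), Hormad1 at 2.04 (SE 1.77, adjusted p = 0.850) and Mov10l1 at 1.97 (SE 0.73, adjusted p = 0.421). No member passed the test (0.00645% of genes were called higher and 0.0129% lower). An unadjusted p under 0.05 was found for 2 (Mael and Mov10l1), and for 1549 of all 15504 genes. All 4 conditions share 1 estimate of the spread in this fit, so it takes in the library labelled female Epi. With the 7-passage culture in its place, 3 of 8 members had such a p, and 1787 of 15447 genes (33 called higher, 81 lower). With only the 4 cultures compared, 6 of 8 had it, and 3398 of 15504 genes (0 called in each direction). No member was called in either fit. Dazl differed by 0.13 (SE 0.62, adjusted p = 1).

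The sample titles fall into a lower and a higher run of numbers in 7 of the 8 cultures, which the labels do not explain. Of the 8 members tested, 5 had every serum run above every 2i run, where 12.2% of the 15504 genes did and 11.6% had every serum run below. Mael, for one, was between 0.556 and 1.21 FPKM over the 4 runs in 2i and between 10.2 and 15.9 FPKM over the 3 in serum. Ddx4, Sycp3, Mov10l1 and Hormad1 were likewise apart, while Stk31 and Tex19.1 overlapped at this level. The male serum runs themselves differed: Dazl averaged 26.3 FPKM in the lower run (13 cells) and 6.30 FPKM in the higher (39 cells), and Tex19.1 averaged 227.5 and 90.6 FPKM.

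Against serum, the Epi cultures were lower without overlap for 6 of 8 members (all but Ddx4 and Sycp3), where 11.9% of genes were lower and 29.5% higher in this way, and the median log2 difference was −2.01 against 0.12 over all genes. No member passed limma's test (0.00645% of genes were called lower and 0.0322% higher). An unadjusted p under 0.05 was found for 2 (Dazl and Stk31), and for 1000 of all 15504 genes. The lines differed in sign for Ddx4 and Sycp3. From serum to Epi, Sycp3 differed by 0.09 on the log2 scale in the female line and by −3.34 in the male line, and Ddx4 by 0.17 and −3.08.

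With the 7-passage culture in place of the library labelled female Epi, 6 members were lower in Epi than in serum cells by the same test, where 2.55% of 15447 genes were called lower and 2.94% higher. Tex19.1 fell by 6.30 on the log2 scale (SE 0.56, limma adjusted p = 0.00452), Hormad1 by 5.79 (SE 1.16, adjusted p = 0.0419), Mael by 3.98 (SE 0.65, adjusted p = 0.0255), Sycp3 by 3.73 (SE 0.45, adjusted p = 0.0116), Dazl by 3.63 (SE 0.45, adjusted p = 0.0129) and Stk31 by 2.78 (SE 0.40, adjusted p = 0.0172). That culture comes from a table normalized on its own. With the male Epi culture alone, 2 members were called lower (Sycp3 and Tex19.1), where 0.937% of genes were and 1.43% were called higher, and the lone culture is then assumed to vary like the other groups. Sycp3 in male Epi cells came from 8 of 31 cells of the lower title run and 0 of 32 of the higher.

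Set against 2i, the Epi cultures were lower without overlap for 2 of 8 members, Dazl and Stk31, where 18.4% of genes were lower and 33.8% higher in this way. No member was called (0.374% of genes were called lower and 0.29% higher). Dazl alone had an unadjusted p under 0.05 (log2 difference −2.76, SE 0.62, limma adjusted p = 0.122), so 1 of 8 members. Of all 15504 genes, 2362 had such a p. Set against the 2i culture of its own line, the library labelled female Epi was higher and the male Epi culture lower for Ddx4, Mael, Sycp3, Mov10l1 and Hormad1. With the 7-passage culture in place, Dazl, Stk31 and Tex19.1 were called lower, where 4.84% of genes were and 6.12% were called higher. With the male Epi culture alone, Dazl and Tex19.1 were called lower, where 2.4% of genes were and 2.56% were called higher.

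Motor neuron cultures were lower than serum cultures for 7 of 8 members without overlap (all but Stk31), where 15.9% of genes were lower and 54.8% higher in this way, and the median log2 difference was −2.20 against 0.71 over all genes. One member passed limma's test: Dazl fell by 3.02 (SE 0.62, adjusted p = 0.0135), where 2.7% of genes were called lower and 30.1% higher. Hormad1 differed by −3.83 (SE 1.77, adjusted p = 0.136), Mael by −2.91 (SE 1.18, adjusted p = 0.0992), Tex19.1 by −2.21 (SE 1.68, adjusted p = 0.331) and Sycp3 by −2.19 (SE 1.01, adjusted p = 0.135). The Dazl call was lost without the female serum culture (limma adjusted p = 0.0796), the male serum culture (0.0724) or the male motor neuron culture (0.0639), and at a pseudocount of 0.1 (0.0616). With the cell line as a block, Hormad1 was called too (limma adjusted p = 0.0438). With the 7-passage culture in the fit 5 members were called lower (4.55% of genes lower, 32.3% higher), and 4 without the library labelled female Epi (4.53% lower, 30.9% higher) or without the male Epi culture (4.61% lower, 30.5% higher). Under upper-quartile scaling the median difference of all genes was 0.00 in this comparison, and 57.4% of all calls were higher ones in place of 91.8%. That scaling put the log2 difference of Dazl at −3.42 (limma adjusted p = 0.0119).

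**Figure D5:**
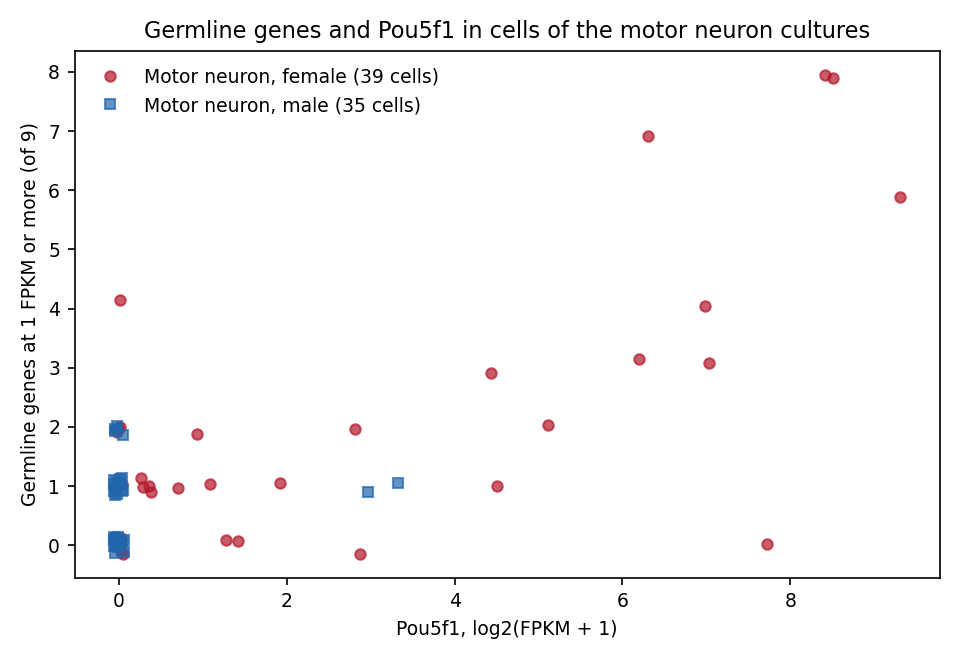
Number of the 9 germline genes at 1 FPKM or more against the level of the pluripotency gene Pou5f1, as log2(FPKM + 1), in the 39 female (red circles) and 35 male (blue squares) cells of the motor neuron cultures, with a small sideways and vertical spread. The 4 cells with 5 or more germline genes are all female and all have Pou5f1 above 1 FPKM.

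In the female motor neuron culture 26 of 39 cells expressed at least 1 member, and few expressed many. The mean number of members expressed was 1.77 ± 2.21 (SD, n = 39 cells), 13 cells expressed none and 4 expressed 5 or more, while in the male culture the mean was 0.629 ± 0.690 (n = 35) and no cell passed 2. The 17 female cells with Pou5f1 at 1 FPKM or more expressed 2.88 ± 2.80 members, and the 22 without expressed 0.909 ± 1.02. Over these 39 cells, which share 1 culture and differ in depth, the number of members had a Spearman correlation of 0.54 with Pou5f1 and of 0.53 with the number of genes detected. The median over 21 pairs of members was 0.44 in this culture and 0.08 to 0.25 in the 2i and serum cultures and the library labelled female Epi, all as descriptions. In the female and male 2i cultures the correlation with Pou5f1 was −0.24 and −0.01, and in the serum cultures 0.26 and 0.46. In the library labelled female Epi it was 0.15, in male Epi cells −0.14, in the 7-passage culture 0.08 and in male motor neurons 0.17. At day 5.5 it was −0.45 in female and −0.01 in male cells. Zscan4d, a gene of 2-cell-like cells, averaged 4.00 FPKM in the female motor neuron culture. Of the 3 listed genes of such cells, it alone averaged at least 1 FPKM there. Their sum ran from 0 to 144.3 FPKM per cell, so few cells can carry such a mean. The part of Zscan4d in the values above was not tested.

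Between the lines, Tex19.1 and Hormad1 were higher in the female culture under all 4 conditions, so 2 of 8 members, where 7.66% of genes were, and none was lower under all 4, where 13.7% of genes were. No gene of the 15504 was called by limma (0% in each direction), with 1389 at an unadjusted p under 0.05. Hormad1 was the one member among these (log2 difference 2.59, SE 0.78, adjusted p = 0.532). Its 4 female means were 19.5, 64.7, 25.99 and 14.3 FPKM against male means of 7.97, 46.03, 0.00629 and 0 FPKM. For both genes the Epi part rests on the library labelled female Epi. In the 7-passage female culture, from a table of its own, Tex19.1 averaged 0.659 FPKM and Hormad1 0 FPKM. Male Epi cells had 0.733 and 0.00629 FPKM, so neither gene was higher in that female culture. With it in place, 0 of 8 members had an unadjusted p under 0.05 by limma, where 1028 of 15447 genes did. Within the 4 ES cultures alone, the sign turned for Dazl, Ddx4, Mael, Sycp3 and Mov10l1.

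Asz1 and Stk31 were expressed in a larger share of cells at days 3.5 and 4.5 than in any culture, across tables normalized on their own. Asz1 averaged 13.1 FPKM at day 3.5 and 5.96 FPKM at day 4.5, where 65.2% (42.7 to 83.6%) and 60.9% (38.5 to 80.3%) of cells expressed it, and 2.67 and 1.11 FPKM in female and male cells at day 5.5. Stk31 was expressed in 91.3% and 95.7% of cells at days 3.5 and 4.5, at means of 9.91 and 7.42 FPKM, and in 35% and 31.7% at day 5.5, at means of 1.02 and 1.27 FPKM. Day 5.5 embryos differ in strain and come from a table of their own, so levels set beside the earlier stages are no tested change. The labels do not tie the day 3.5 and 4.5 cells to single embryos, and no test was made between days 3.5 and 4.5.

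Dazl was listed at 1 FPKM or more in 0 of 23 cells at day 3.5, which allows a share of up to 13.0%, and in 8 of 23 at day 4.5 (34.8%, 16.4 to 57.3%). The 8 cells bore 5 of the 7 leading title numbers of that stage, so they did not sit under 1 number. At day 5.5 its share was 15.0% in female and 9.52% in male cells, with no cell above 2.70 FPKM. Ddx4 had shares of 13.0% and 8.70% at days 3.5 and 4.5 and of 80% (56.3 to 94.3%) and 66.7% (53.7 to 78.05%) in female and male cells at day 5.5.

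Sycp3 was expressed in 78.3% of cells at day 3.5, 86.96% at day 4.5, and 100% and 90.5% of female and male cells at day 5.5, at means of 11.1 to 15.2 FPKM. Chpt1, which shares exonic bases with it, averaged 18.3 and 11.5 FPKM at days 3.5 and 4.5 and 3.56 and 2.29 FPKM at day 5.5. Tex19.1 averaged 39.1 FPKM at day 3.5, 40.1 FPKM at day 4.5, and 107 and 44.6 FPKM in female and male cells at day 5.5. Hormad1, abundant in ES cells, averaged at most 2.42 FPKM in the embryo, at day 4.5, and Mael at most 1.48 FPKM, in female cells at day 5.5. Mov10l1 ran from 0.600 FPKM at day 3.5 to 1.91 FPKM at day 4.5. Within day 5.5 cells the median pairwise Spearman correlation of members was 0.01 in both sexes.

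Other germline genes were mostly higher in serum than in 2i as well. Of 32 further genes in 3 lists (meiosis, piRNA pathway and other germline), 22 were tested. Serum lay above 2i without overlap for 17 of 22 (27.1% of all genes), with a median log2 difference of 0.84, and Epi below serum for 12 of 22 (11.9% of all genes), with a median of −1.33. None was called in either comparison by limma, with 3 and 6 at an unadjusted p under 0.05 (1549 and 1000 of all 15504 genes). The median was −0.06 for Epi against 2i and 0.76 for the female against the male line. These Epi and line values include the library labelled female Epi, and no fit without it is given. Summed means (FPKM) of the meiosis list were 64.28 in that library, 9.65 in male Epi and 14.01 in 7-passage Epi cells. In female and male 2i cells they were 40.97 and 47.15. In the same order, the other germline list had 58.01, 3.82, 3.91, 35.37 and 69.46. The piRNA list had 30.95, 9.43, 42.87, 38.64 and 29.61, so its 7-passage sum lay above both 2i sums.

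The most abundant meiosis genes over the cultures were Stra8, Hormad2 and Rec8. Stra8, the retinoic acid responsive gate to meiosis, averaged 0.183 and 3.97 FPKM in female and male 2i cells, 52.6 and 115.2 FPKM in serum cells, 14.3 and 0.00263 FPKM in the female and male cultures labelled Epi, and 44.04 and 0.0812 FPKM in motor neurons. Hormad2 was between 20.03 and 26.7 FPKM in all 4 ES cultures. Rec8, a meiotic cohesin subunit, reached 22.8 FPKM in female motor neurons and 11.1 FPKM in male serum cells. Of the piRNA list Fkbp6, Rnf17 and Gtsf1 were the most abundant, with Fkbp6 at 29.3 and 22.1 FPKM in serum, and of the third list Rpl10l, Tuba3a and Taf7l, with Rpl10l at 54.3 FPKM in male 2i cells.

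In motor neuron against serum cultures, 5 of the 22 fell and 2 rose by limma, where 2.7% of genes were called lower and 30.1% higher. Gtsf1, a piRNA factor, fell by 3.19 (adjusted p = 0.0293), Tuba3a by 3.02 (adjusted p = 0.0271), Hormad2 by 2.54 (adjusted p = 0.0345), Rnf17 by 2.29 (adjusted p = 0.0298) and Tex11 by 1.86 (adjusted p = 0.0218). Tdrkh, a Tudor protein of mitochondria, rose by 2.16 (adjusted p = 0.0113) and Brdt, a testis bromodomain protein, by 1.08 (adjusted p = 0.0431), the latter named after its value was seen to complete the count. The median of the 22 was −1.71.

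All 7 germ cell specification genes were tested, and 3 fell in motor neuron against serum cultures by limma: Tfap2c by 3.21 (adjusted p = 0.0254), Prdm14 by 2.55 (adjusted p = 0.0367) and Prdm1 by 1.59 (adjusted p = 0.00969). In that comparison 2.7% of all genes were called lower and 30.1% higher. None of the 7 was called in the other 4 comparisons. There 0 to 2 of the 7 had an unadjusted p under 0.05, as did 1000 to 2362 of all 15504 genes. Dppa3, Kit and Tfap2c were the most abundant. Dppa3 was at 79.4 to 106.3 FPKM in the ES cultures, 93.4 FPKM in the library labelled female Epi, 0.02 FPKM in male Epi cells, and 535 and 281.1 FPKM at days 3.5 and 4.5. Kit was above 13.0 FPKM in the 2i and motor neuron cultures.

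Of 9 genes of PRC1.6 and the H3K9 methyltransferases, none was called by limma in any of the 5 comparisons. In each, 0 to 2 of the 9 had an unadjusted p under 0.05, as did 1000 to 7383 of all 15504 genes. The most abundant, Rnf2, Ehmt2 and Ehmt1, averaged at least 19.5 FPKM in each of the 8 cultures.

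Of 7 genes of DNA methylation and demethylation, 2 fell in motor neuron against serum cultures by limma, where 2.7% of all genes were called lower. These were Dnmt3b, by 3.23 (adjusted p = 0.00606), and Uhrf1, by 1.02 (adjusted p = 0.0395). None of the 7 was called in the other 4 comparisons. There 0 to 3 of the 7 had an unadjusted p under 0.05, as did 1000 to 2362 of all 15504 genes. Dnmt3a, a de novo methyltransferase, averaged 16.1 and 15.0 FPKM in 2i and 157.2 and 260.1 FPKM in serum (log2 difference 3.62, SE 0.72, limma adjusted p = 0.151). Dnmt3l, its catalytically inactive partner, averaged 5.89 and 8.58 FPKM in 2i, 195.5 and 118.5 FPKM in serum, 219 FPKM in the library labelled female Epi, 0.127 FPKM in male Epi cells and 1.31 FPKM in the 7-passage culture. In the 2i cultures, where Dnmt3l was low, Dazl, Tex19.1 and Hormad1 were expressed in 80.4% of cells or more, and the other 6 members in 60.8% or fewer. Dnmt3b reached 539 and 788 FPKM in female and male cells at day 5.5. At that stage Ddx4, Sycp3 and Tex19.1 were expressed in 66.7% of cells or more in both sexes, and the other 6 members in 35% or fewer.

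Likeness of pattern was measured as Pearson's r over log2(mean FPKM + 1) of the 8 cultures, which share lines and tables, and is a description with no test. Among the members, r ran from 0.40 (Dazl and Mov10l1) to 0.95 (Ddx4 and Mael). The 5 genes most like Dazl were Rgcc (r = 0.98), Vwa3b (0.98), Mok (0.97), Gpr160 (0.97) and Polr2e (0.96). The most like each other member were Dmrt1 for Ddx4 (0.99), Ctnnal1 for Mael (0.97), Rad1 for Sycp3 (0.97), Irak3 for Stk31 (0.95), Tesc for Tex19.1 (0.99), Stra8 for Mov10l1 (0.99) and 2410024N13Rik for Hormad1 (0.99). Polr2e, a subunit common to the RNA polymerases, shows how little such an r says of size: its mean moved only between 305.4 and 523 FPKM over the cultures.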

How the data were processed

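Per the labels' protocols, each cell was lysed directly and its library made by SMART-seq2 and Tn5. FPKM values were made by the authors and deposited in 4 tables. The submitters' processing notes name STAR 2.4.1, Cufflinks, Cuffnorm 2.2.1 and mm10. Each table was normalized on its own, so tests were kept within 1 table except where the 7-passage culture is named. In the deposited tables, numbers written with "e_" as exponent were read as "e-". Groups were taken from the labels. FPKM keeps no read depth, so the 95% Clopper-Pearson intervals, and the limits that 3 cells give where none was seen, cover the counting of cells only.

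Mean FPKM over the cells of each of the 8 cultures of the largest table was turned into log2(mean + 1). Genes averaging 1 FPKM or more over the 8 were tested with limma 3.58.1 in R 4.3.3 (calls needed an adjusted p below 0.05 and a difference of 1 or more on the log2 scale), after a check on simulated data. The simulated cultures had no difference between lines, so that check does not cover a culture that goes against its label. Python 3.11.15 and pandas 2.3.3 made the other values. Nothing in the labels says that the 2 lines' cultures were repeated, so p-values measure the spread between single cultures of 2 lines. The same lines run through all conditions, so they pair the samples: over 15504 genes, female minus male differences correlated between conditions at r = 0.06 to 0.16. A fit with the line as a block is given where it changed a call. The genes named are the 9 members, genes of the 6 other lists that were called or among the 3 most abundant, and the genes most like a member in pattern. Members and lists were chosen with earlier results of these data known. Alternatives were another pseudocount, filters, scalings, thresholds, title runs, the 7-passage culture and each culture left out.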

Additional observations from a re-analysis of the deposited data

Results flagged for a closer look

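For 7 members the change between 2 conditions ran in opposite directions in the 2 lines, each line giving 1 culture per condition, so the difference was not tested. From serum to the cultures labelled Epi, the female change minus the male change was 3.25 on the log2 scale for Ddx4 (0.17 against −3.08) and 3.43 for Sycp3 (0.09 against −3.34). From 2i to Epi it was 3.25 for Ddx4 (1.62 against −1.62), 3.88 for Mael (2.75 against −1.14), 4.36 for Sycp3 (2.85 against −1.51), 1.94 for Mov10l1 (1.32 against −0.61) and 3.56 for Hormad1 (0.40 against −3.16). These 7 values rest on the library labelled female Epi, which carried naive markers in nearly all cells. From 2i to serum, Dazl differed by 0.56 between the lines (0.41 against −0.14) and Asz1, which was below the filter for testing, by 1.15 (0.10 against −1.05).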

How the results depend on the processing

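Of 825 log2 differences of members recomputed under the alternatives, 767 kept their sign and side of the threshold, 28 passed the threshold only there, 4 no longer passed and 26 changed sign. Some alternatives cannot move a difference between conditions, such as leaving out a culture that is not compared or fitting the line as a block. As reported, only Dazl in motor neuron against serum was called, so no other could lose a call. Of the shares of cells at other thresholds, 74.4% stayed within their interval. Members called lower in Epi against serum (0) were 6 with the 7-passage culture and 0 to 2 with 1 culture left out. In Epi against 2i (0) they were 1 with means of log2 values, 3 with the 7-passage culture and 0 to 2 with 1 left out. In motor neuron against serum (1) they were 0 at a pseudocount of 0.1, 3 with means of log2 values, 5 with the 7-passage culture, 2 with the line as replicate block, 2 with only the 4 cultures compared and 0 to 4 with 1 left out. The block changed no other call of a member. At 5 FPKM, members per cell were 3.05 and 3.06 in female and male 2i cells, 3 at day 4.5, and 2.60 and 2.13 in female and male cells at day 5.5. Over all genes, calls higher and lower ran from 0 to 33 (1) and 0 to 213 (2) in serum against 2i, 0 to 454 (5) and 0 to 394 (1) in Epi against serum, 0 to 946 (45) and 0 to 747 (58) in Epi against 2i, and 1561 to 4985 (4669) and 89 to 1617 (419) in motor neuron against serum, with the value as reported in brackets. Sign changes in serum against 2i were Dazl at −0.57 and Tex19.1 at −0.093 with means of log2 values, and Dazl at −0.32 in the higher title runs and between −0.11 and 0.38 with 1 culture left out. In Epi against serum, Sycp3 ran from −3.30 to 0.047 with 1 culture left out. In Epi against 2i, Ddx4 (0.00) came to −0.87 at a pseudocount of 0.1, −0.10 under upper-quartile scaling, −0.27 in the higher title runs, −1.45 with the 7-passage culture and between −1.40 and 1.41 with 1 left out. With the 7-passage culture Mael came to −0.96, Sycp3 to −1.43 and Mov10l1 to −0.37. With 1 culture left out Mael ran from −0.96 (without female Epi) to 2.57 (without male Epi), and likewise Sycp3 from −1.002 to 2.34, Mov10l1 from −0.36 to 1.08 and Hormad1 from −3.75 to 0.99. In female against male lines, the 4 ES cultures alone gave −0.21 for Dazl, −0.44 for Ddx4, −0.15 for Mael, −0.55 for Sycp3 and −0.43 for Mov10l1. Sycp3 also came to −0.56 with the 7-passage culture and −0.46 without one or the other Epi culture. The cause of these changes was not tested. Depth per cell is unknown, so a gene listed at 0 may be present below detection.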
